A study of Mus musculus with 9 samples.

Results

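Levels of 8 genes with known roles in the cerebellum and hindbrain were followed across 9 bulk RNA sequencing libraries of dissected nigral tissue. The genes were Fat2, Cbln1, Cbln2, Cbln3, Cbln4, Barhl1, Zic1 and Pcp2, 8 of the 55450 genes in the count files, and they were taken by symbol from a list. They were chosen on the counts of Fat2, which were far higher in the DAT group of libraries, so the differences of all 8 between DAT and the other groups are described without a test. The study delivered a Cre-dependent lentiviral vector to the substantia nigra on both sides of the brain in male mice, and asked how nigral tissue differs when the vector's transgene is switched on in microglia or in dopaminergic neurons. Tissue was collected 5 weeks after transduction.

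The CTR group (3 libraries) came from CX3CR1-CreERT2 mice, in which tamoxifen switches Cre on in cells that use the Cx3cr1 promoter, given a vector for a control protein, which the sample labels call GFP and the study's text a destabilized form of GFP. The CX3 group (3 libraries) came from the same Cre line given the transgene vector, and the DAT group (3 libraries) from DAT-Cre mice, whose Cre is driven from the dopamine transporter gene Slc6a3, given the transgene vector. Every vector carried the Ef1a promoter. Mice were 8 weeks old by the study's results text and 9 weeks old by its methods, and tamoxifen is described for the CX3CR1-CreERT2 mice. CX3 and CTR thus differ in the vector, whereas DAT and CTR differ in Cre line, tamoxifen and vector together, and these cannot be told apart. The sources used here do not say how many animals gave a library, so the p-values measure only the spread between libraries, which may be technical.

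Fat2 encodes a giant protocadherin of the Fat family, best known in the brain from cerebellar granule neurons and from precerebellar neurons of the hindbrain. Cerebellins are secreted proteins of the C1q family that bridge presynaptic neurexins and postsynaptic delta glutamate receptors, and Cbln1 from granule neurons holds their synapses on Purkinje cells together. Barhl1 and Zic1 encode transcription factors of neurons born at or near the rhombic lip, but Barhl1 is also used in the developing diencephalon and Zic1 in many dorsal brain regions, while Pcp2 is a classical Purkinje cell gene.

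The label of a granule neuron lineage was checked against a list of 15 granule neuron markers. Gabra6, the GABA receptor subunit that defines mature granule neurons, had 1 to 5 counts in each of the 9 libraries, and was too low for the fit. Neurod1, a transcription factor of granule neurons, had 1.82 ± 0.191 CPM (library-scaled counts; SD, n = 3 libraries) in CTR, 1.75 ± 0.200 in CX3 and 1.61 ± 0.216 in DAT. Pcp2 had 0 to 10 counts in a library. Other markers of the list, which also serve other brain regions, mostly differed in DAT. Of the 14 in the fit, 10 were higher than in CTR (edgeR adjusted p under 0.05), 1, Etv1, was lower and 3 were not called. Of all genes in the fit, 32.0% were called higher and 27.9% lower there. Since Gabra6 was nearly absent in every group while other markers differed, the 8 genes are called by their names here and not by a cell type.

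The CPM values are counts of both strands scaled with edgeR's TMM method, which sets the typical gene equal between libraries. Counts on genes numbered 29378008 to 35595813 in CTR, 32892827 to 36586743 in CX3 and 21592817 to 39475428 in DAT, and 3 counts, the smallest signal taken as countable, equal 0.0779 to 0.151 CPM. The DAT libraries stood apart as a group. Genes with at least 1 count numbered 26475 to 28764 in DAT, 31143 to 31777 in CX3 and 35401 to 36463 in CTR, and reads outside annotated exons made up 5.45 to 5.58%, 8.36 to 9.47% and 9.82 to 10.01% of uniquely mapped reads in the same order. These differences run with the groups, so they and the groups cannot be told apart. Library DAT B also differed from DAT A and DAT C, with squared count differences 18.7 and 13.6 times those of random sampling against 2.38 between DAT A and DAT C.

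Th, the rate-limiting enzyme of dopamine synthesis, and Slc6a3, which mark the labelled tissue, were present in every group. Th had 81.6 ± 2.16 CPM in CTR, 101 ± 2.50 in CX3 and 68.4 ± 0.501 in DAT. Slc6a3 had 130.0 ± 2.58, 195 ± 2.74 and 91.1 ± 2.52 CPM. In bulk tissue, fewer cells of a type and less RNA per cell cannot be told apart. For Slc6a3 in DAT, the Cre allele of the mice is an allele of this gene itself, and its part cannot be told apart either.

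Among the 8 genes, Fat2 and Barhl1 showed the highest ratios between DAT and CTR, and the bases before their annotated starts are shown to place both genes on the genome. Windows of 250 bases upstream of a RefSeq transcript start on GRCm38.p6 were found for 6 of the 8 genes. Each window is read toward the gene, both genes lie on the minus strand, and capitals mark matches to the motifs searched. The Fat2 window, chr11:55312258-55312507, lies within the gene as GENCODE M21 draws it (chromosome 11 from 55250609 to 55336564), directly upstream of an exon and in no exon of its own. On the minus strand the GENCODE gene begins at 55336564, so this window does not lie before that start. The Barhl1 window, chr2:28916669-28916918, ends where the GENCODE gene begins (chromosome 2 from 28907679 to 28916668).
Fat2: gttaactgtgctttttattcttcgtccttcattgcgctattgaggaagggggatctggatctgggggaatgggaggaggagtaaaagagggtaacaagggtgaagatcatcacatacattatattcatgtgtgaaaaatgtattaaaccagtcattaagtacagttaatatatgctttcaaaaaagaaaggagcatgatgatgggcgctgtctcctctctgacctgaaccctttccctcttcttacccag
Barhl1: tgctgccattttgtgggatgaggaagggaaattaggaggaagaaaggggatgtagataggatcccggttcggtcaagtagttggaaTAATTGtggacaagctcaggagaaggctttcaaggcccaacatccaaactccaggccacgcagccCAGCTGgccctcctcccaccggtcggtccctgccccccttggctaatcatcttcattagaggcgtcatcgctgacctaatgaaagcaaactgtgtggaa
Both strands of each window were searched for 3 E-box sequences and 2 homeodomain core sequences. The E-box CAGCTG was present in the Barhl1 window and in 13% of all 32851 windows of this length. The homeodomain core TAATTG was also present in the Barhl1 window, without overlapping the E-box, and in 7.169% of all windows. Another Barhl1 window, within the gene and not shown, held CAGCTG and CAATTA, the reverse complement of TAATTG. The E-box CAGATG occurred in 14.44% of windows and the E-box CATATG in 3.464%, while the homeodomain core TAATTA occurred in 4.84%. The windows of Fat2 and Cbln4 held none of these letters, and no binding can be read from a match or from its absence.

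Fat2 (ENSMUSG00000055333.14) separated the 3 groups without overlap. Its level was 0.460, 0.714 and 0.533 CPM in the CTR libraries A, B and C, from 14, 26 and 16 counts. It was 1.56, 1.44 and 1.74 CPM in the CX3 libraries, from 60, 50 and 67 counts. The DAT libraries had 15.9, 11.5 and 15.2 CPM, from 579, 229 and 347 counts. Every CX3 library lay above every CTR library, and every DAT library lay far above both.

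The mean of Fat2 in DAT, 14.2 ± 2.35 CPM (SD, n = 3), was 24.96 times that in CTR, 0.569 ± 0.131, and 8.98 times that in CX3, 1.58 ± 0.152. By the fitted difference from CTR, 4.62 ± 0.18 on the log2 scale (standard error), Fat2 ranked 11 of the 20892 genes in the fit, which is the property it was chosen for. Leaving out 1 library at a time kept this difference between 4.47 and 4.82. It was 4.12 in counts of the reverse strand alone and 5.11 in those of the forward strand, where the CTR mean was 0.701 and 0.361 CPM.

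Within DAT, library B was low for Fat2. Its 11.5 CPM, with an exact 95% Poisson interval of 10.1 to 13.1, lay below the 14.6 to 17.2 of DAT A and the 13.7 to 16.9 of DAT C. Fat2 has 14528 exon bases, and other long genes were low in DAT B as well. The 1505 fitted genes with exons over 10 kb had a median log2 difference of -0.20 between DAT B and the other DAT libraries, against 0.02 for the 19387 shorter genes, and Fat2 had -0.43. Across all DAT libraries the long genes had a median log2 difference of 0.15 from CTR, against 4.62 for Fat2. The part of transcript length in the Fat2 values was not tested.

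The comparison of CX3 with CTR was not used to choose the genes and was tested. Fat2 rose by 1.45 ± 0.24 on the log2 scale (edgeR quasi-likelihood test, Benjamini-Hochberg adjusted p = 0.000397), to 2.78 times the CTR mean. It was called under each of the alternatives run, with log2 differences from 1.03 in reverse-strand counts to 2.02 in forward-strand counts. The adjusted p of the edgeR test in reverse-strand counts was 0.0451.

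**Figure D1:**
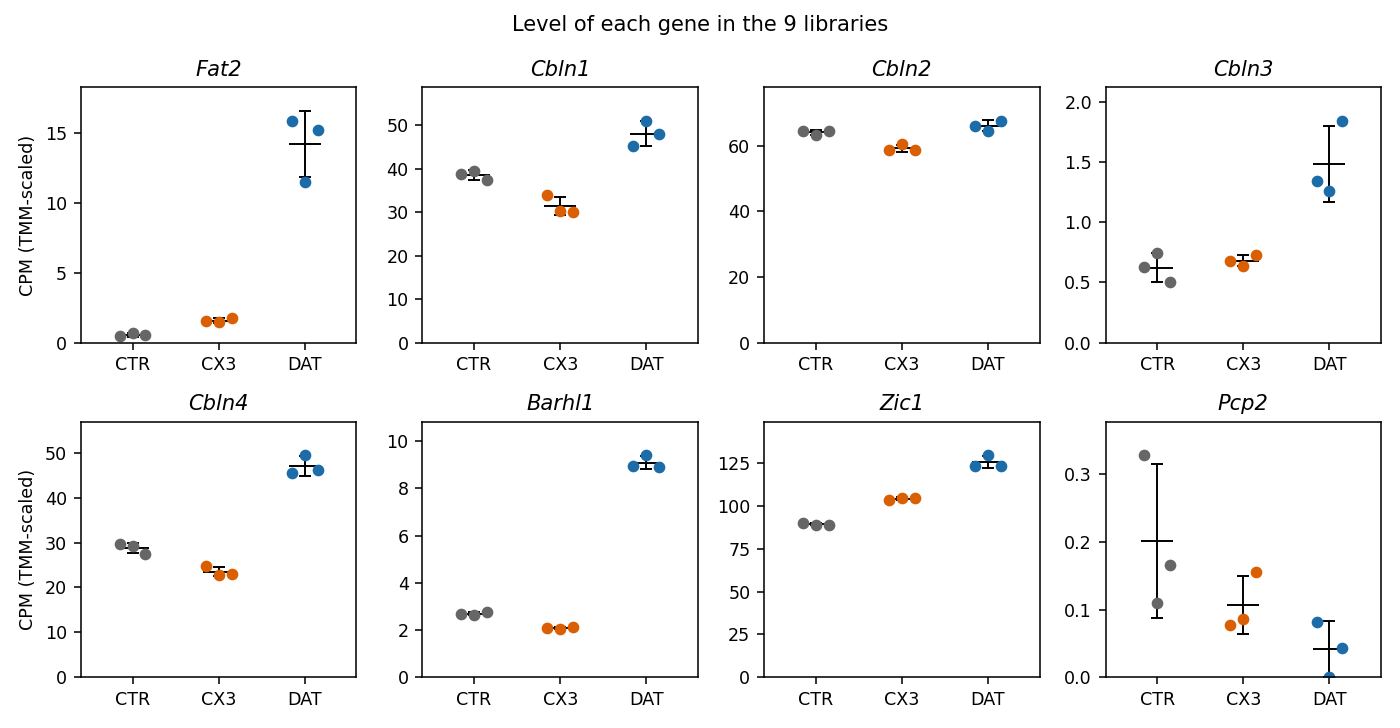
CPM of the 8 genes in each library (points, linear axes from 0, a scale of its own for each gene), with the group mean and SD of 3 libraries (bars). Fat2 and Barhl1 stand far higher in DAT, Cbln2 is nearly level, and Pcp2 never exceeds 0.328 CPM.

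Cbln2, Cbln1 and Cbln4 were far more abundant than Cbln3. Per kilobase of exon, CTR libraries held 22.1 CPM of Cbln2, 12.7 of Cbln1, 9.91 of Cbln4 and 0.128 of Cbln3. Cbln3, which in the cerebellum is made by granule neurons and is secreted with the help of Cbln1, was thus a minor member in this tissue, as was Fat2 with 0.0392 CPM per kilobase.

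Cbln1 (ENSMUSG00000031654.16, chromosome 8 from 87468405 to 87472609) was lowest in CX3 and highest in DAT. Its CPM were 38.9, 39.5 and 37.3 in CTR, 33.9, 30.2 and 30.1 in CX3, and 45.3, 51.0 and 47.9 in DAT. The groups did not overlap, and neither did 23.9% of all fitted genes in the higher direction and 25.4% in the lower direction between CX3 and CTR. Cbln1 fell in CX3 against CTR by 0.29 ± 0.06 on the log2 scale (edgeR adjusted p = 0.00244). In DAT its mean was 1.25 times that of CTR and 1.53 times that of CX3.

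Cbln4 (ENSMUSG00000067578.3, chromosome 2 from 172036233 to 172043466), a cerebellin that also binds the receptor Dcc, took the same order with wider steps. It had 29.7, 29.1 and 27.4 CPM in CTR, 24.7, 22.8 and 23.1 in CX3, and 45.4, 49.4 and 46.2 in DAT. No libraries of different groups overlapped. Cbln4 fell in CX3 by 0.29 ± 0.06 on the log2 scale (edgeR adjusted p = 0.00179), and its DAT mean was 1.63 times that of CTR and 1.998 times that of CX3.

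Cbln2 (ENSMUSG00000024647.14), the most abundant cerebellin here, varied least. Its CPM were 64.6, 63.3 and 64.4 in CTR, 58.7, 60.4 and 58.6 in CX3, and 66.1, 64.4 and 67.6 in DAT. The CX3 libraries lay below both other groups, and DAT overlapped CTR. The CX3 difference of -0.11 ± 0.04 on the log2 scale did not pass the threshold (edgeR adjusted p = 0.0590), and passed it in 3 alternatives with adjusted p of 0.0191 to 0.0486. The DAT and CTR means had a ratio of 1.03, and the sign of the fitted log2 difference, 0.04 ± 0.04, turned to -0.10 when libraries were scaled by their size alone.

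Cbln3 (ENSMUSG00000040380.14, chromosome 14 from 55878913 to 55884392) was read by 15 to 49 counts in a library. It had 0.624, 0.742 and 0.5001 CPM in CTR, 0.675, 0.635 and 0.729 in CX3, and 1.34, 1.26 and 1.84 in DAT. CTR and CX3 overlapped and every DAT library lay above them, with a DAT mean 2.38 times that of CTR. Between CX3 and CTR the log2 difference was 0.12 ± 0.25 (edgeR adjusted p = 0.765), so a change smaller than this error was not detectable at these counts.

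Barhl1 (ENSMUSG00000026805.14), a homeodomain factor of rhombic lip and subthalamic neurons, had the second highest ratio after Fat2. Its CPM were 2.66, 2.64 and 2.77 in CTR, 2.10, 2.05 and 2.11 in CX3, and 8.94, 9.41 and 8.91 in DAT. Its libraries were tight within groups and the groups did not overlap. The DAT mean of 9.08 ± 0.278 CPM was 3.38 times that of CTR and 4.35 times that of CX3, and the fitted log2 difference from CTR, 1.75 ± 0.10, ranked 125 of 20892. In CX3 Barhl1 fell by 0.36 ± 0.11 on the log2 scale (edgeR adjusted p = 0.0269). This call was lost in 10 alternatives, among them DESeq2 (adjusted p = 0.0711), reverse-strand counts (edgeR adjusted p = 0.673) and the removal of any 1 CTR or CX3 library (edgeR adjusted p from 0.0503 to 0.0784), all with the same sign.

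Zic1 (ENSMUSG00000032368.14, chromosome 9 from 91358058 to 91365810), a zinc finger factor of dorsal neural progenitors and granule neurons, was lowest in CTR, intermediate in CX3 and highest in DAT. It had 90.3, 88.9 and 89.0 CPM in CTR, 103, 105 and 105 in CX3, and 123, 129.6 and 123 in DAT. The groups did not overlap. The CX3 increase was 0.22 ± 0.04 on the log2 scale (edgeR adjusted p = 0.00102), and the DAT mean was 1.40 times that of CTR. With libraries scaled by size alone the log2 difference of DAT from CX3 was 0.07 in place of 0.27. Zic1 shares 60 exon bases, 1.05%, with Zic4 on the opposite strand.

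Pcp2 (ENSMUSG00000004630.18, chromosome 8 from 3623371 to 3625545) did not pass the filter on low counts. It had 10, 4 and 5 counts in CTR, 3, 3 and 6 in CX3, and 3, 0 and 1 in DAT, and no fold is given for it. Pcp2 shares 51.5% of its 1828 exon bases with Pet100 on the opposite strand, and reads of one gene cannot be told from those of the other there, so its level is uncertain.

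**Figure D2:**
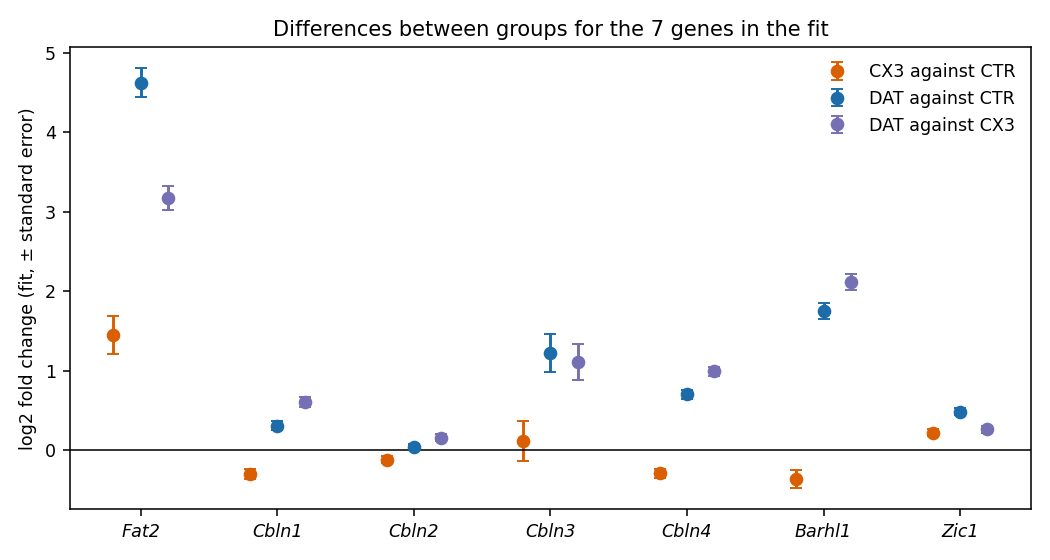
Fitted log2 fold changes with standard errors for the 7 genes in the fit, for each pair of groups. In DAT against CTR the points run from 0.04 for Cbln2 to 4.62 for Fat2, and in CX3 against CTR from -0.36 for Barhl1 to 1.45 for Fat2.

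Counted together, 5 of the 7 fitted genes were called in CX3 against CTR at an edgeR adjusted p under 0.05, 2 higher (Fat2 and Zic1) and 3 lower (Cbln1, Cbln4 and Barhl1), where 30.5% of all 20892 genes were called. Of all genes, 14.0% were called higher and 16.5% lower, and the median log2 difference was -0.00, against -0.11 for the 7. In DAT, 6 of the 8 genes had every library above every CTR library and 1, Pcp2, every library below, where 33.5% of all fitted genes lay above without overlap and 30.6% below. Against CX3 all genes but Pcp2 lay above in every DAT library, where 32.2% of fitted genes did so and 28.8% lay below. The median log2 difference of the 7 was 0.71 from CTR and 0.99 from CX3, and nothing is read from these counts because the genes were chosen for the DAT libraries. CTR serves as the reference of both comparisons, so their values are given only side by side.

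The proteins that cerebellins bind are encoded by 7 genes of the receptor list. All 7 were higher in DAT than in CTR (edgeR adjusted p under 0.05, where 59.9% of all genes were called, 32.0% higher and 27.9% lower), with a median log2 difference of 0.49. Grid1, a delta glutamate receptor, was higher by 1.03 ± 0.07 on the log2 scale. The presynaptic partners Nrxn2 and Nrxn3 were higher by 1.13 ± 0.05 and 0.62 ± 0.04. In CX3 against CTR, 14.0% of all genes were called higher and 16.5% lower. None of the 7 rose there and 4 fell, among them Nrxn2 by 0.17 ± 0.05 on the log2 scale (edgeR adjusted p = 0.0156). Without CTR library C, 2 fell.

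Among the 5 genes of C1q-like relatives of cerebellins and their receptor, 4 were higher in DAT than in CTR and none was lower. The median was 0.31 on the log2 scale, and 32.0% of all genes were called higher. Adgrb3, the receptor that C1q-like proteins bind, was higher by 0.38 ± 0.05 on the log2 scale and C1ql1 by 0.29 ± 0.07. In CX3, C1ql2 fell by 0.53 ± 0.07 (edgeR adjusted p = 6.01e-05) while Adgrb3 differed by -0.12 ± 0.05 (edgeR adjusted p = 0.0867), and 2 of the 5 fell, or 4 without DAT library B. Of all genes, 14.0% were called higher and 16.5% lower in CX3 against CTR.

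All 6 other genes of Fat and Dachsous cadherins, with the Four-jointed homologue Fjx1, were higher in DAT than in CTR. Their median log2 difference was 0.74, and 32.0% of all genes were called higher. Dchs1, a Dachsous ligand of Fat cadherins, was higher by 0.97 ± 0.08 on the log2 scale, Fat1 by 0.81 ± 0.11 and Dchs2 by 0.79 ± 0.22. The value of Fat2 was 4.62. In CX3 against CTR, 1 of the 6, Fjx1, rose and 1, Dchs1, fell, and from 0 to 5 of the 6 were called when 1 library was left out, with 0 without CTR library A and 5 without DAT library B. Of all genes, 14.0% were called higher there and 16.5% lower.

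The 8 genes whose levels lay nearest to those of Fat2, by Euclidean distance of centred log2 CPM over the 9 libraries, were Hoxc4, the ribosomal RNA gene CT010467.1, Avp, Rn7sk, Hoxb5, Hoxa5, Hoxa4 and Gm23935, annotated as a microRNA gene. Hoxc4, at a distance of 1.34, had 0.101 ± 0.0584 CPM in CTR, 0.274 ± 0.172 in CX3 and 3.55 ± 0.306 in DAT. Avp, the vasopressin gene of hypothalamic neurons, had 0.411 ± 0.0247, 0.553 ± 0.130 and 6.55 ± 1.30 CPM. Rn7sk, a small nuclear RNA without a poly(A) tail, had 1.36 ± 0.280, 1.98 ± 0.865 and 28.2 ± 1.66 CPM, and CT010467.1 had 603 ± 17.4, 1128 ± 286 and 6763 ± 888. The nearest genes thus comprised 4 Hox genes, a hypothalamic peptide and 3 RNAs that are not messenger RNAs. The centred values were not scaled, so near genes must share the large DAT difference for which Fat2 was chosen. The 4 Hox genes also had few counts outside DAT, and the filter on low counts can be passed through that group alone. Nothing is read from the list of nearest genes. Nearest to Barhl1 was Crtac1 at 0.269, to Cbln4 P4htm at 0.129, to Zic1 Stk39 at 0.0475 and to Cbln1 Apeh at 0.107.

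**Figure D3:**
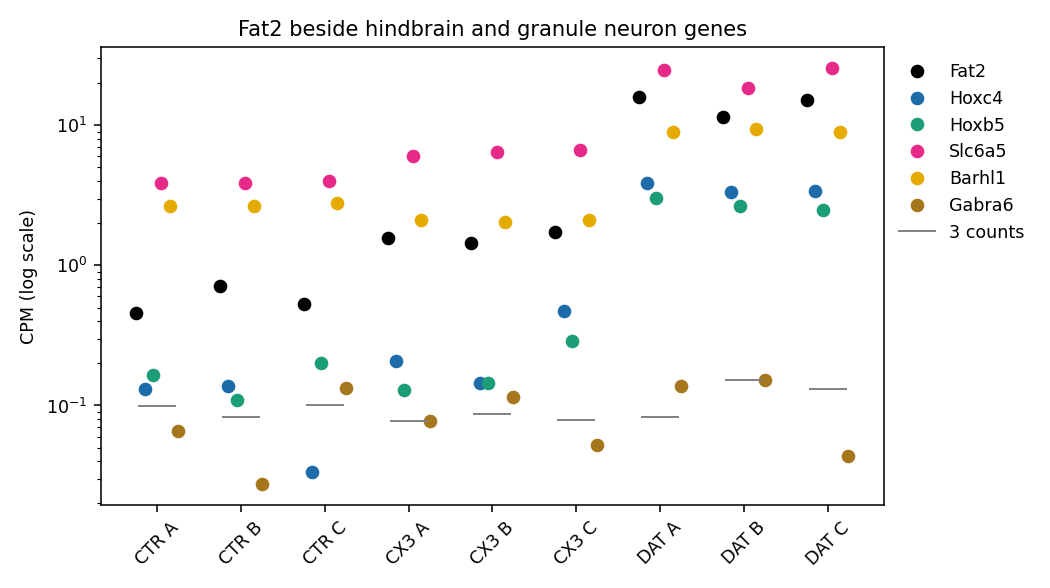
CPM on a log axis of Fat2, 2 of its nearest genes (Hoxc4 and Hoxb5), Slc6a5, Barhl1 and Gabra6 in each of the 9 libraries, with grey bars at 3 counts. Fat2, Hoxc4, Hoxb5, Slc6a5 and Barhl1 are highest in the 3 DAT libraries, while Gabra6 stays near 3 counts or below in all groups. Hoxc4 and Hoxb5 lie near Fat2 through the DAT level that Fat2 was chosen for.

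Lists of regional markers were read beside Fat2 and Barhl1. The calls in each list stand beside those of all genes, of which 32.0% were called higher and 27.9% lower in DAT against CTR. The 15 granule neuron markers summed to 309.7 to 311 CPM in CTR, 336 to 346 in CX3 and 486 to 521 in DAT. Of the 14 in the fit, 10 were higher and 1, Etv1, lower in DAT than in CTR. Slc17a7, the vesicular glutamate transporter of cortical as well as granule neurons, was higher by 2.12 ± 0.06 on the log2 scale and Neurod2 by 2.31 ± 0.13. Zic2 and Zic5, relatives of Zic1, were higher by 1.49 ± 0.05 and 1.02 ± 0.12. Neurod1 differed by -0.17 ± 0.18 (edgeR adjusted p = 0.432).

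In CX3 against CTR, 8 granule neuron markers rose and 3 fell, where 14.0% of all genes were called higher and 16.5% lower. Slc17a7 rose by 0.92 ± 0.06 on the log2 scale (edgeR adjusted p = 6.71e-08), Zic5 by 0.64 ± 0.12 and Zic2 by 0.31 ± 0.05, beside the rise of Zic1. The 3 that fell were Reln, by 0.83 ± 0.09 on the log2 scale (edgeR adjusted p = 9.84e-06), Mab21l1, by 0.49 ± 0.14, and Etv1, by 0.23 ± 0.04.

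The 13 Purkinje cell markers summed to 521 to 534 CPM in CTR, 569 to 580 in CX3 and 649 to 679 in DAT. Of the 12 in the fit, 8 were higher in DAT than in CTR and none was lower. Ppp1r17, a phosphatase inhibitor of Purkinje cells and some hypothalamic neurons, had 1.35 ± 0.292 CPM in CTR and 3.37 ± 0.140 in DAT, and Lhx1, used by Purkinje cells and by other neurons, was higher by 1.14 ± 0.08 on the log2 scale. Calb1, a calcium buffer of Purkinje cells and many other neurons, differed by 0.05 ± 0.05 (edgeR adjusted p = 0.389). Among 4 Bergmann glia markers, Gdf10 was higher and A2m and Timp4 were lower. Of 8 fitted rhombic lip transcription factors, 2 were higher and 2 lower, with Barhl2, the relative of Barhl1, at 2.36 ± 0.140 CPM in CTR and 4.21 ± 0.0905 in DAT. In CX3, Barhl2 fell by 0.73 ± 0.17 on the log2 scale (edgeR adjusted p = 0.00489), beside the lower values of Barhl1.

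Hindbrain Hox genes mark the axis from the hindbrain backward. In CX3, where Fat2 rose, edgeR called none of the fitted Hox genes higher and DESeq2 called 1. The list of 17 summed to 2.80 to 3.08 CPM in CTR, 1.53 to 3.02 in CX3 and 16.4 to 18.01 in DAT. Of the 10 in the fit, 8 were higher and 1, Hoxb2, was lower in DAT than in CTR, with a median log2 difference of 3.68. The filter on low counts can be passed through 1 group alone. Several of the 8 had few counts outside DAT, such as Hoxa5 with 5, 2 and 1 in CTR and 74, 46 and 64 in DAT. The count of 8 and the median are thus partly set by that filter, and nothing is read from them. Hoxc4 had 4, 5 and 1 counts in CTR, 8, 5 and 18 in CX3 and 142, 66 and 78 in DAT. Hoxb5 had 5, 4 and 6 counts in CTR, 5, 5 and 11 in CX3 and 111, 53 and 57 in DAT. The fitted log2 differences of DAT from CTR, 5.06 ± 0.36 for Hoxc4, 4.77 ± 0.45 for Hoxa5, 4.19 ± 0.51 for Hoxa4 and 4.12 ± 0.29 for Hoxb5, are not exact at such counts in CTR and depend on the fit, and so does the median. Hoxb1 went the other way, with 7, 7 and 14 counts in CTR, 0, 1 and 0 in CX3 and none in DAT. In CX3 against CTR, 1 of the 10, Hoxb2, was called, and it fell, where 14.0% of all genes were called higher and 16.5% lower.

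Of the hindbrain nuclei markers, Slc6a5, the glycine transporter of inhibitory hindbrain and spinal neurons, stood out. It had 118, 140 and 120 counts in CTR, 231, 223 and 255 in CX3 and 900, 370 and 583 in DAT, and like Fat2 it was intermediate in CX3. Its log2 differences from CTR were 0.70 ± 0.13 in CX3 (edgeR adjusted p = 0.000941) and 2.56 ± 0.12 in DAT. The serotonin genes Slc6a4 and Tph2 were higher than in CTR by 0.85 ± 0.09 and 0.86 ± 0.07 on the log2 scale in CX3, and by 0.60 ± 0.09 and 0.22 ± 0.08 in DAT. Dbh, Phox2a and Slc6a2, genes of noradrenergic neurons, were too low for the fit.

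Markers of regions in front of the midbrain were read beside the share of all genes. In DAT against CTR, 59.9% of all genes were called, 32.0% higher and 27.9% lower. In CX3 against CTR, 14.0% were called higher and 16.5% lower. All 8 hypothalamus and subthalamus markers were higher in DAT than in CTR, with a median log2 difference of 1.64, among them Pmch by 3.46 ± 0.16, Hcrt by 2.39 ± 0.25 and Nkx2-1 by 1.64 ± 0.09. The filter on low counts can be passed through 1 group alone, and some of these markers had few counts in CTR, such as Hcrt with 11, 10 and 7. The count of 8 and this median are thus partly set by that filter, and nothing is read from them. In CX3, 3 of these 8 rose, Hcrt by 4.99 ± 0.18 and Pmch by 4.14 ± 0.15, and 5 fell. Of 7 fitted cortex and hippocampus markers, 6 were higher in DAT. In DAT against CTR, 4 of 8 thalamus markers were higher and none was lower (2 were higher without CTR library B, CTR library C or DAT library C), 1 of 6 habenula markers was higher and 1 lower (none was lower without CTR library A, CTR library C, CX3 library B or DAT library A, and 2 were lower without CX3 library A), and 4 of 8 fitted dorsal and GABAergic midbrain markers were higher and 1 lower. Median log2 differences were 0.15 for the thalamus list, -0.04 for the habenula list and 0.38 for the dorsal and GABAergic midbrain list. Whether the calls in the thalamus, habenula and dorsal and GABAergic midbrain lists differ from the share of all genes was not tested. The 6 choroid plexus markers were higher than in CTR in both other groups, with summed levels of 34.0 to 36.6 CPM in CTR, 1467 to 1577 in CX3 and 867 to 1038 in DAT. The part that the tissue included in a dissection had in the values of Fat2, Barhl1 and the cerebellins was not tested.

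Midbrain dopaminergic markers, 14 in all, summed to 988 to 999 CPM in CTR, 1212 to 1229 in CX3 and 834 to 847 in DAT. In DAT against CTR, 4 were higher and 5 lower, where 32.0% of all genes were called higher and 27.9% lower, and the median log2 difference was -0.00. Ret, a receptor for neurotrophic factors of the GDNF family, was higher by 0.61 ± 0.06 on the log2 scale, while Chrna6 was lower by 0.56 ± 0.06, Slc6a3 by 0.51 ± 0.04, Aldh1a1 by 0.48 ± 0.04 and Th by 0.25 ± 0.04. Slc6a3 is the gene that carries Cre in the DAT mice. In CX3, 10 rose and none fell, and 6 rose without CTR library C or without CX3 library B. Of all genes, 14.0% were called higher and 16.5% lower in CX3 against CTR. The means of Cbln1, Cbln2 and Cbln4 were lowest in CX3 and highest in DAT, although Cbln2 overlapped between DAT and CTR. The summed level of the dopaminergic list had the reverse order, and Aldh1a1 alone made up 441 CPM of it in CTR. The means of Th, Slc6a3, Chrna6 and Aldh1a1 were among those that took this reverse order, while Ret was among those that did not. The single genes of the list took no common order in DAT, and a link to the cerebellins was not tested.

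**Figure D4:**
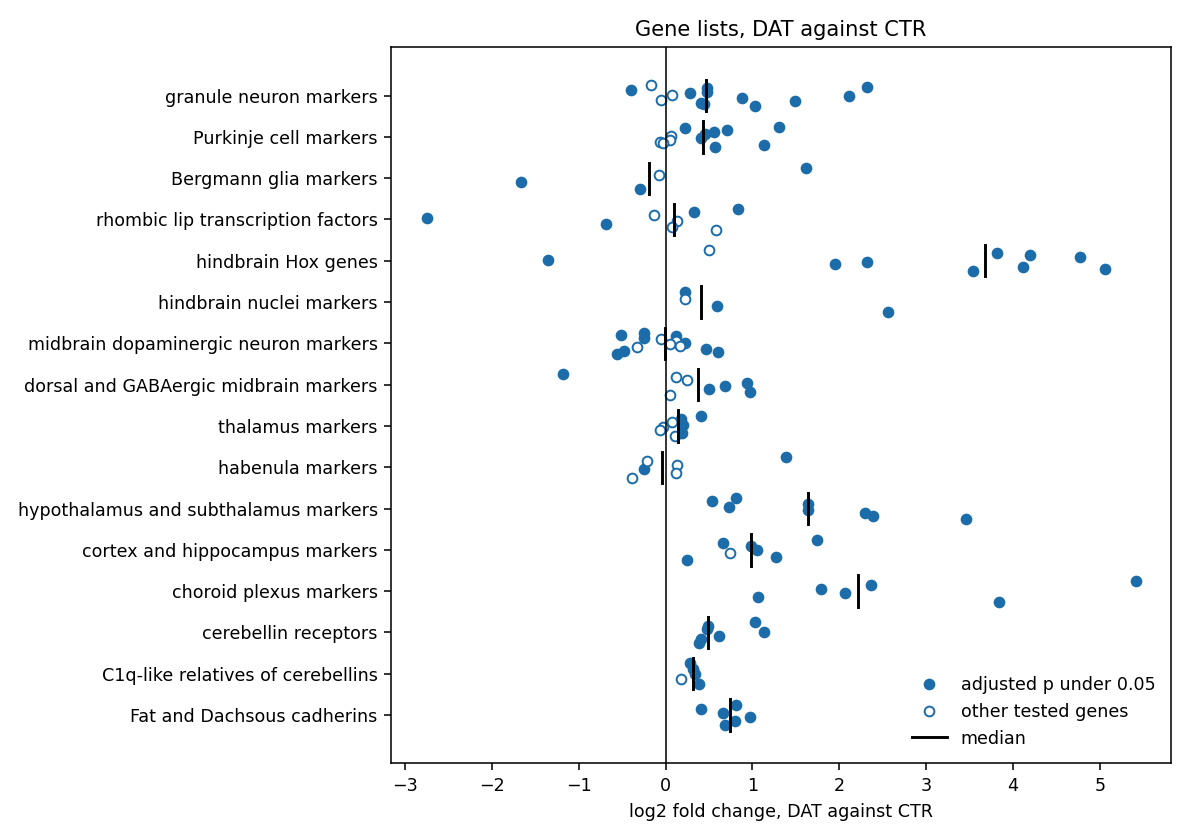
Fitted log2 fold changes, DAT against CTR, of the genes in 16 lists (filled points, edgeR adjusted p under 0.05; open points, other fitted genes; bars, medians). The hindbrain Hox list has a median of 3.68, the choroid plexus list 2.21, the granule neuron list 0.46 and the midbrain dopaminergic list -0.00. Several Hox genes with few counts elsewhere passed the filter on low counts through the DAT libraries, which raises the median of that list.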

How the data were processed

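The authors deposited raw counts of reads per gene, without normalization, for 9 libraries of dissected nigral tissue. Per the labels and methods, reads were trimmed with Trimmomatic, aligned with STAR to mm10 and counted on genes. The methods name featureCounts, while the files have the layout of STAR's gene counts, with both strands together and each strand. Versions are not given in the sources used here. A stranded kit is named, but the reverse strand held 49.8 to 49.9% of strand-specific counts, so counts of both strands were used, and antisense genes cannot be told apart. Rows naming no gene held 30.5 to 35.9% of reads and were left out. All symbols come from GENCODE M21. The transgene and values of some listed genes are not reported here.

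The counts of 20892 genes that passed edgeR's filter on low counts were fitted in edgeR 4.0.16 (R 4.3.3) with TMM scaling and the quasi-likelihood test over all 3 groups, and p-values were adjusted by Benjamini-Hochberg over all genes. Calls used an adjusted p under 0.05. Members' differences with DAT have no test. Nearness to Fat2 used log2 CPM with a prior count of 2. Intervals are exact Poisson intervals and, like the floor of 3 counts, cover counting error only. On simulated counts of DAT against CTR with 200 changed genes among 20525, 94% of 2-fold and 98% of 4-fold changes were recovered. The simulation left genes at low levels unchanged and changed far fewer genes than the 12520 called in the data. These rates thus do not describe low-count genes or a comparison with so many differences. Alternatives were DESeq2 1.42.0, other scalings and filters, counts of either strand, 2 groups alone, a replicate block and leaving out each library.

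The members and the gene lists were chosen with earlier results of these data known. Among the genes reported, the text names all members, up to 4 called genes of each list with the largest difference between DAT and CTR and at least 1 CPM in a group, Gabra6, Neurod1, Ppp1r17, Th and Slc6a3, and the 8 genes nearest to Fat2. Calb1, Etv1, Reln, Mab21l1 and single Hox genes with few counts outside this rule were named after their values were seen, as were nearest genes of other members. Sequences and transcript starts are from RefSeq on GRCm38.p6. Python 3.11.15 with pandas 2.3.3 and matplotlib 3.10.9 did the rest.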

Additional observations from a re-analysis of the deposited data

How the results depend on the processing

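The numbers of genes called stayed within 1.5 times those reported under every alternative. Leaving out 1 library at a time gave 4638 to 8588 genes for CX3 against CTR, 11259 to 13389 for DAT against CTR and 11265 to 13254 for DAT against CX3, and 4 to 6 of the fitted members called in CX3. With libraries scaled by size alone, the share of calls that were higher was 58.9% in place of 45.9% for CX3 against CTR, 37.8% in place of 53.4% for DAT against CTR and 33.3% in place of 53.2% for DAT against CX3, and the median log2 difference of all genes moved to 0.04, -0.15 and -0.20. Signs turned for Cbln3 in CX3 against CTR, to -0.079 in forward-strand counts and -0.015 without CTR replicate C, with 0.27 the highest value when 1 library was left out. They turned for Cbln2 in DAT against CTR, to -0.10 with library size alone, -0.073 in reverse-strand and -0.000724 in forward-strand counts, and in DAT against CX3, to -0.036 with library size alone. The cause was not tested.

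The letters A to C are no known pairing, since deviations of libraries with the same letter correlated from -0.53 to 0.41. With a replicate block, 5805 genes were called in CX3 against CTR, 12144 in DAT against CTR and 11955 in DAT against CX3, and 5 members in CX3. DESeq2 called 5832, 11985 and 11790 genes. Low counts limit Cbln3 and Pcp2 most, and Fat2 in CTR rests on 56 counts over 3 libraries.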
